A study of Mus musculus with 64 samples.

Results

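A set of 10 genes of the glucocorticoid system was followed across the prefrontal cortex (PFC) and the hypothalamus of mice given psilocybin or saline. They are 2 corticosteroid receptors (Nr3c1 and Nr3c2), the enzyme Hsd11b1, and 7 genes that glucocorticoids are known to induce (Sgk1, Fkbp5, Tsc22d3, Zbtb16, Cdkn1a, Pdk4 and Errfi1). The set was selected on measured values, the lower Sgk1 level at 4 weeks than at 3 h after injection in the hypothalamus, so hypothalamic differences between these times describe how the genes were chosen and carry no test here. All 10 symbols were found among the 55401 genes of the count table, and all 10 were among the 18971 genes that passed the filter on low counts. On GRCm38 the genes named most below are Sgk1 (ENSMUSG00000019970.15, chr10:21882184-21999893, plus strand), Fkbp5 (ENSMUSG00000024222.17, chr17:28399094-28517524, minus strand), Tsc22d3 (ENSMUSG00000031431.13, chrX:140539528-140600659, minus strand), Zbtb16 (ENSMUSG00000066687.5, chr9:48654297-48836222, minus strand) and Cdkn1a (ENSMUSG00000023067.14, chr17:29090976-29100722, plus strand), and reads were counted over their exons.

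Each animal was a male C57BL/6J mouse on chow, 10 weeks old, that was injected into the peritoneum with the serotonergic psychedelic psilocybin (3 mg/kg) or with isotonic saline as vehicle. Per the study's methods, mice were given sham injections of saline on the days before an experiment. Tissue was taken 3 h or 4 weeks later, in the morning and 4 h after light onset, and RNA was sequenced as poly-A selected bulk libraries. There were 8 groups of 8 samples from 32 mice, every mouse giving both regions. The mice harvested at 4 weeks were older than those harvested at 3 h, and no uninjected mice were among the samples used here. Time since injection, age and day of harvest therefore cannot be told apart. In bulk tissue, fewer cells of a type and less RNA per cell cannot be told apart either.

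Glucocorticoids are adrenal steroid hormones, corticosterone in the mouse, whose blood level follows a daily rhythm and goes up with stress, handling and injection. They enter the brain and bind the mineralocorticoid receptor (Nr3c2), which has high affinity and is largely occupied at rest, and the glucocorticoid receptor (Nr3c1), which fills when hormone is high. The bound receptors move to the nucleus, bind glucocorticoid response elements in DNA and change the transcription of target genes, while Hsd11b1 regenerates active hormone inside cells. Fkbp5 is a cochaperone of the receptor that lowers its affinity for hormone, and its induction by the receptor forms a short feedback loop.

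The response element is an imperfect palindrome, and a search of the promoter windows was used to show where the bare sequence occurs. RefSeq start sites on GRCm38.p6 gave windows of 250 bases before to 50 bases after the start for 8 of the 10 genes (all but Zbtb16 and Nr3c1), 17 windows in all. The palindrome searched was AGAACA, then any 3 bases, then TGTTCT, which reads alike on both strands. It was found in 1 of these 17 windows and in 0.00913% of all 32851 windows, that is 3. The hexamer TGTTCT, or AGAACA for the other strand, both of which the palindrome also contains, was found in 4 of the 17 windows (23.5%) and in 19% of all windows. Sgk1 had 6 of the 17 windows and 3 of these 4. In a list of 32 other target genes, described below, 28 genes had windows, and 4 of their 35 (11.4%) held a hexamer and 0 the palindrome. The window with the palindrome belonged to Sgk1, at an internal start of the gene (chr10:21993640-21993939, plus strand). In it the palindrome began 189 bases before the start, and a further hexamer began 242 bases before. The most upstream window of Tsc22d3 (chrX:140600473-140600772, minus strand) held a hexamer 185 bases before the start, and the window of Fkbp5 (chr17:28486100-28486399, minus strand) held neither. These 3 windows are shown 5′ to 3′ because the genes carry the results below, with hexamers and the palindrome in capitals.
Sgk1: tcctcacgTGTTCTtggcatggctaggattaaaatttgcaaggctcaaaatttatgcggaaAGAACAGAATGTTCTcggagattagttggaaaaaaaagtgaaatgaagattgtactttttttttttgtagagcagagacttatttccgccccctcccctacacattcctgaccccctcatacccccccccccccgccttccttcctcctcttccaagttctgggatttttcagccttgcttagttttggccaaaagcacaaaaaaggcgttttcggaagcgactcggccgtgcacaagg
Tsc22d3: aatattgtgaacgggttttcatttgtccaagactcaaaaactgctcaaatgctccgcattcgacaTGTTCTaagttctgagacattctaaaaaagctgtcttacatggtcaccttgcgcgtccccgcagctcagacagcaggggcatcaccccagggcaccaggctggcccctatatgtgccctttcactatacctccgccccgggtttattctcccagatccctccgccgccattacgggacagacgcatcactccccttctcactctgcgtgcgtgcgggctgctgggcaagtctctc
Fkbp5: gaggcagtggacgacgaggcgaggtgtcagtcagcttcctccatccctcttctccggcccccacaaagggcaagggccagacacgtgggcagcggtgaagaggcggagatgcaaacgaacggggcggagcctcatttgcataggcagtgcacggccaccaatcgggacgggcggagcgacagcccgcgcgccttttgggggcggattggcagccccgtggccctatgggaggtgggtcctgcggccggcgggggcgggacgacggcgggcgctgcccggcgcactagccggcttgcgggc
A match marks letters only, and a window without a match says nothing about sites elsewhere.

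The 2 libraries with 211111 and 200066 counted reads were left out (hypothalamus, saline, 3 h, replicate 2, and PFC, psilocybin, 4 weeks, replicate 3), which left 62 with 8061033 to 70361839 reads, median 18287978.5. The tissue labels held against marker genes. Slc17a7, a marker of cortical excitatory neurons, had a median of 235 RPKM (CPM, the count scaled to a common library size, per kilobase of exon) in the PFC and 5.98 in the hypothalamus, and the hypothalamic neuropeptide gene Pmch had 0.235 and 173. A pair of libraries stood apart by their quality weight in limma (voomWithQualityWeights), fitted to these 62 libraries with the model of the study's methods. Psilocybin replicate 5 of the hypothalamus at 4 weeks had a weight of 0.0276, and psilocybin replicate 7 of the PFC at 3 h had 0.12. These are the libraries of low weight left out below. Next lowest were saline replicates 3, 4 and 5 of the PFC at 3 h, at 0.275, 0.323 and 0.286. The study also left out a library rich in transcripts of wound healing and immunity, which the sources used here do not name and which is therefore kept here. Over 6 genes of wound healing and immune response the summed level was highest in saline replicate 6 of the hypothalamus at 4 weeks, at 101 RPKM (group median 20.9), and in the PFC in psilocybin replicate 5 at 3 h, at 37.3 RPKM (group median 10.8). Groups of 7 or 8 libraries were compared, and counts behind the 10 genes lay between 40 for Zbtb16 and 7628 for Nr3c1 in a library.

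Per kilobase of exon, the most abundant of the 10 genes in the hypothalamus was Tsc22d3, which encodes an anti-inflammatory leucine zipper protein, with a median of 23.8 RPKM over 31 libraries. In the PFC Tsc22d3 had 16.9 RPKM, next to Nr3c1 with 16.4 RPKM, and their order changed with time: at 4 weeks Nr3c1 had group medians of 16.6 and 17.4 RPKM after saline and psilocybin, against 13.8 and 13.0 for Tsc22d3. The glucocorticoid receptor gene Nr3c1 had 14.6 RPKM in the hypothalamus, against 4.38 RPKM for the mineralocorticoid receptor gene Nr3c2. In the PFC the values of the receptors were 16.4 and 6.43 RPKM. Zbtb16, a zinc finger transcription factor, had a median of 2.43 RPKM over all hypothalamic libraries and 8.47 RPKM in the PFC. It was the least abundant of the 10 in the hypothalamus at 4 weeks (1.61 and 1.38 RPKM after saline and psilocybin) but not at 3 h (3.29 and 4.77, against 3.23 and 2.93 for Pdk4). Fkbp5 had 3.48 and 3.89 RPKM, and the hormone-activating enzyme Hsd11b1 had 3.25 and 4.42 RPKM in hypothalamus and PFC.

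In the hypothalamus, the comparison used to choose the genes, Sgk1 had 39.7 to 99.0 TMM-scaled CPM (read counts scaled to a common library size) at 3 h after saline, median 58.1, and 25.7 to 45.9 at 4 weeks, median 29.0. Sgk1 encodes a kinase that regulates ion channels and transporters. After psilocybin its values were 30.9 to 98.4 CPM at 3 h, median 51.7, and 18.3 to 33.6 at 4 weeks, median 28.6. The libraries at 3 h were widely spread, and 6 of 7 after saline and 7 of 8 after psilocybin lay above the whole 4-week group. The log2 fold change of 3 h over 4 weeks was 1.16 (SE 0.17) after saline and 1.06 (SE 0.16) after psilocybin. The 4 other genes with log2 fold changes above 0.5 were Zbtb16 with 1.38 (SE 0.21) after saline and 1.81 (SE 0.21) after psilocybin, Cdkn1a with 1.22 (SE 0.16) and 1.29 (SE 0.15), Tsc22d3 with 0.90 (SE 0.11) and 0.82 (SE 0.10), and Fkbp5 with 0.60 (SE 0.11) and 0.88 (SE 0.11). In these 4 genes the groups did not overlap after either treatment, as was the case for 0.859% of all genes after saline and 0.348% after psilocybin. The choice of the genes largely fixed these values. The remaining genes lay between -0.21 and 0.34 on the log2 scale. Of these, Errfi1 after psilocybin had 0.13 with all libraries and 0.39 without psilocybin replicate 3 at 4 weeks. Its lowest value over settings and left-out libraries was -0.04. Without psilocybin replicate 5 at 4 weeks, which had the lowest Zbtb16 of its group at 1.47 CPM, the log2 fold change of Zbtb16 after psilocybin was 1.62. Marker genes of other cells and places moved in the same comparison. Of 5 choroid plexus markers none had a log2 fold change above 0 after either treatment, with medians of -1.30 after saline and -0.27 after psilocybin, and their summed level reached 964 RPKM in saline replicate 3 at 4 weeks (group median 17.2). Without that library Sgk1 had 1.26 after saline, and without replicate 6 of the same group, highest for wound healing genes, it had 1.17. Striatal markers were above 0 in 5 of 5 after saline (median 0.43) and 1 of 5 after psilocybin (median -0.64), oligodendrocyte markers in 6 of 6 (0.19) and 5 of 6 (0.13), endothelial markers in 5 of 6 (0.16) and 5 of 6 (0.28), blood markers in 5 of 5 (0.27) and 5 of 5 (0.25), thalamic markers in 1 of 5 (-0.10) and 5 of 5 (0.31), hypothalamic markers in 7 of 8 (0.20) and 1 of 8 (-0.29), and immediate early genes in 7 of 8 (0.58) and 4 of 8 (0.10). Their part in the values of the 10 genes was not tested.

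**Figure D1:**
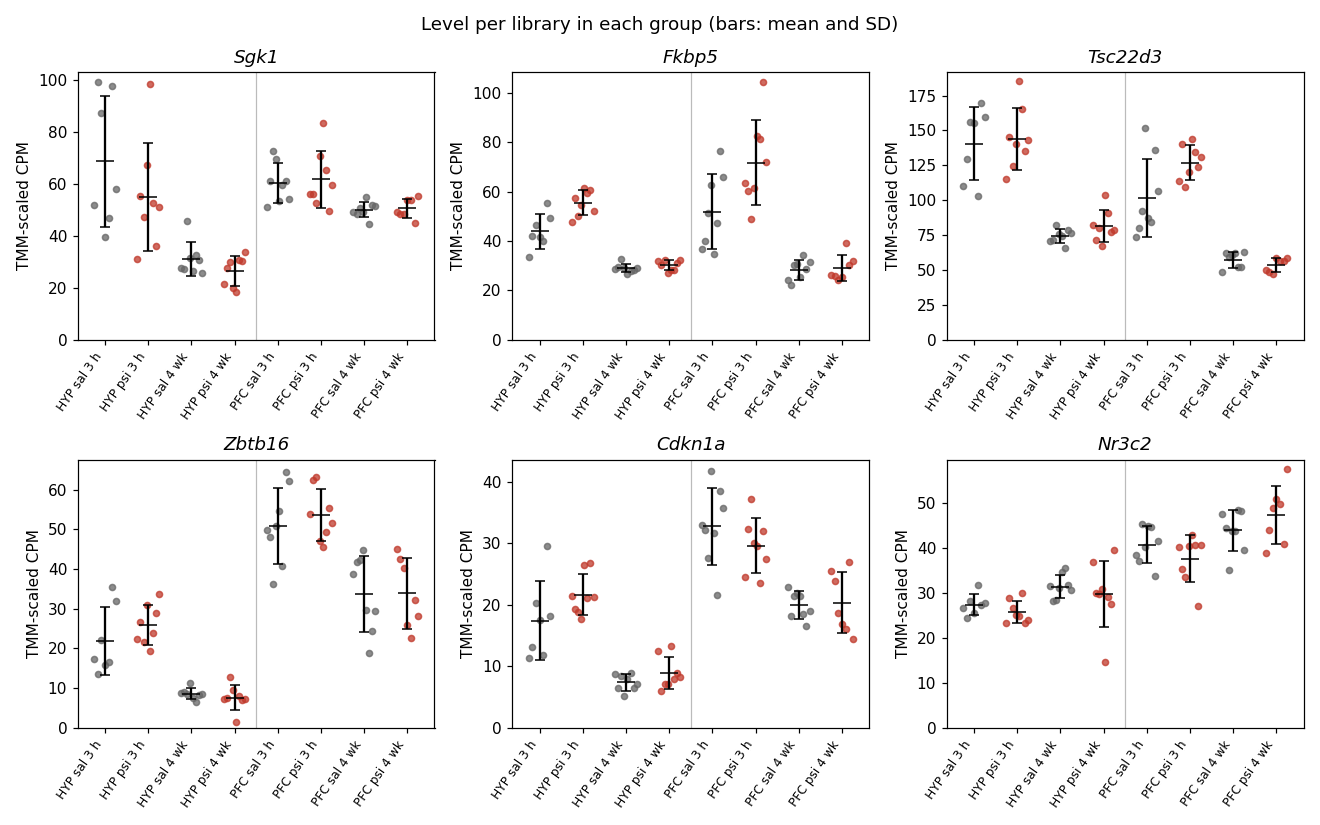
TMM-scaled CPM (y axis) of Sgk1, Fkbp5, Tsc22d3, Zbtb16, Cdkn1a and Nr3c2 in the 62 libraries (1 point each), by region (HYP, hypothalamus, left of the grey line; PFC, right), treatment (sal, saline, grey; psi, psilocybin, red) and time; bars show the mean and SD. Fkbp5 and Tsc22d3 sit higher at 3 h than at 4 weeks in every pairing of region and treatment, while Sgk1 in the PFC lies between 44.6 and 83.4 CPM throughout.

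The PFC libraries asked whether the difference between times was present in the other region. The rule of choice names only the hypothalamus, but the PFC libraries come from the same mice and the genes were chosen with earlier results of these data known. In the PFC 4 of the 10 genes were higher at 3 h than at 4 weeks after saline and 4 after psilocybin, the same 4 genes in both (Fkbp5, Tsc22d3, Cdkn1a and Zbtb16), called at a Benjamini-Hochberg adjusted p under 0.05 over all genes (quasi-likelihood test of edgeR). Of all genes tested, 4.72% were called after saline (2.39% higher) and 5.96% after psilocybin (2.70% higher). These shares moved with hypothalamic psilocybin replicate 5 at 4 weeks, which shares the estimate of the spread: without it 1571 of 18890 genes were called after saline, against 896 of 18971 with it, and 2143 after psilocybin, against 1131. The median log2 fold change of the 10 genes was 0.29 after saline and 0.30 after psilocybin, against -0.00 and 0.01 over all genes. No member was called lower.

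Fkbp5 had 34.9 to 76.4 CPM in the PFC at 3 h after saline, median 49.2, and 22.2 to 34.2 at 4 weeks, median 29.6. After psilocybin it had 48.9 to 104 CPM at 3 h, median 67.7, and 24.3 to 39.4 at 4 weeks, median 26.4. All 8 libraries at 3 h lay above all libraries at 4 weeks after either treatment. The log2 fold change was 0.86 after saline (SE 0.11, edgeR adjusted p = 1.48e-07) and 1.32 after psilocybin (SE 0.11, edgeR adjusted p = 1.21e-12). After psilocybin Fkbp5 had the smallest p-value of the 18971 genes, and after saline the 9th smallest.

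Tsc22d3 had 73.6 to 152 CPM in the PFC at 3 h after saline, median 89.6, and 48.4 to 62.8 at 4 weeks, median 60.0. After psilocybin it had 109 to 144 CPM at 3 h, median 127, and 47.2 to 58.8 at 4 weeks, median 56.6. The groups did not overlap after either treatment, and the psilocybin groups were separated by a gap wider than the range of either. The log2 fold change was 0.82 after saline (SE 0.10, edgeR adjusted p = 1.53e-07) and 1.25 after psilocybin (SE 0.11, edgeR adjusted p = 1.21e-12). Tsc22d3 stood 11th of all genes by p-value after saline and 2nd after psilocybin. Both genes were called in the PFC under every alternative setting and with every library left out in turn.

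Cdkn1a, the cyclin-dependent kinase inhibitor p21, had 21.5 to 41.8 CPM in the PFC at 3 h after saline, median 32.6, and 16.5 to 22.9 at 4 weeks, median 20.2. After psilocybin it had 23.5 to 37.2 CPM, median 29.8, and 14.5 to 27.0, median 18.7. At 3 h 7 of 8 libraries after saline and 6 of 8 after psilocybin lay above the whole 4-week group. The log2 fold change was 0.71 after saline (SE 0.14, edgeR adjusted p = 0.000919) and 0.53 after psilocybin (SE 0.15, edgeR adjusted p = 0.0206). Zbtb16 had 36.1 to 64.4 CPM at 3 h after saline, median 50.3, and 18.8 to 44.7 at 4 weeks, median 34.2. After psilocybin it had 45.5 to 63.3 CPM, median 52.8, and 22.5 to 45.1, median 32.1, so the psilocybin groups did not overlap by a narrow margin. Its log2 fold change was 0.64 after saline (SE 0.19, edgeR adjusted p = 0.0382) and 0.67 after psilocybin (SE 0.20, edgeR adjusted p = 0.0313). The Zbtb16 calls depended on the settings and on single libraries. Both were lost with no filter on low counts (adjusted p = 0.138 after saline and 0.1 after psilocybin) and with no term for extraction pool (0.082 and 0.0526), and the saline call with all 64 libraries (0.0586). After saline the call was lost without replicate 4, 7 or 8 at 3 h or without replicate 1, 5, 6, 7 or 8 at 4 weeks (adjusted p up to 0.104), and after psilocybin without replicate 4, 5, 6 or 8 at 4 weeks (up to 0.0742). The Cdkn1a call after psilocybin was lost without replicate 4 or 8 at 4 weeks (adjusted p = 0.0559 and 0.0532), and without either of these 2 libraries the count of called genes fell from 4 to 2.

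Sgk1, by which the set was chosen in the hypothalamus, was not called in the PFC. It had 51.0 to 72.4 CPM at 3 h after saline, median 60.2, and 44.6 to 54.9 at 4 weeks, median 49.9. After psilocybin it had 49.4 to 83.4 CPM, median 57.9, and 44.7 to 55.1, median 49.1. The higher libraries at 3 h stood above the 4-week range and the rest overlapped it. The log2 fold change was 0.27 after saline (95% interval -0.05 to 0.59, edgeR adjusted p = 0.382) and 0.29 after psilocybin (95% interval -0.04 to 0.62, edgeR adjusted p = 0.321). Errfi1, a feedback inhibitor of the EGF receptor, had log2 fold changes of 0.30 after saline (SE 0.13, edgeR adjusted p = 0.199) and 0.31 after psilocybin (SE 0.14, edgeR adjusted p = 0.184). Its saline groups did not overlap, with 28.4 to 35.3 CPM at 3 h and 21.3 to 27.3 at 4 weeks, which was the case for 0.432% of all genes (0.965% after psilocybin). Over the alternative settings and left-out libraries its adjusted p lay between 0.0413 and 0.383 after saline and between 0.0225 and 0.335 after psilocybin. Pdk4, which encodes a kinase that restrains glucose oxidation, had log2 fold changes of 0.07 (95% interval -0.21 to 0.35) and 0.14 (95% interval -0.15 to 0.43).

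The receptors and the enzyme did not pass the test in the PFC. Nr3c1 had log2 fold changes of -0.08 after saline (95% interval -0.30 to 0.14) and -0.10 after psilocybin (95% interval -0.33 to 0.12). Hsd11b1 had 0.07 (95% interval -0.23 to 0.37) and 0.19 (95% interval -0.12 to 0.50). Nr3c2 had 27.1 to 43.0 CPM at 3 h after psilocybin, median 40.4, and 38.9 to 57.6 at 4 weeks, median 49.1, with overlapping groups. Its log2 fold change was -0.32 after psilocybin (SE 0.11, edgeR adjusted p = 0.0558) and -0.10 after saline (SE 0.10, edgeR adjusted p = 0.653). The psilocybin value passed 0.05 in 7 of 12 alternative settings, with adjusted p between 0.000674 and 0.141 over all settings and left-out libraries. Without the 2 libraries of low weight it was -0.26 (edgeR adjusted p = 0.022). In the hypothalamus its description was -0.20 (SE 0.11) after saline and -0.21 (SE 0.10) after psilocybin, or -0.32 after psilocybin without these libraries.

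**Figure D2:**
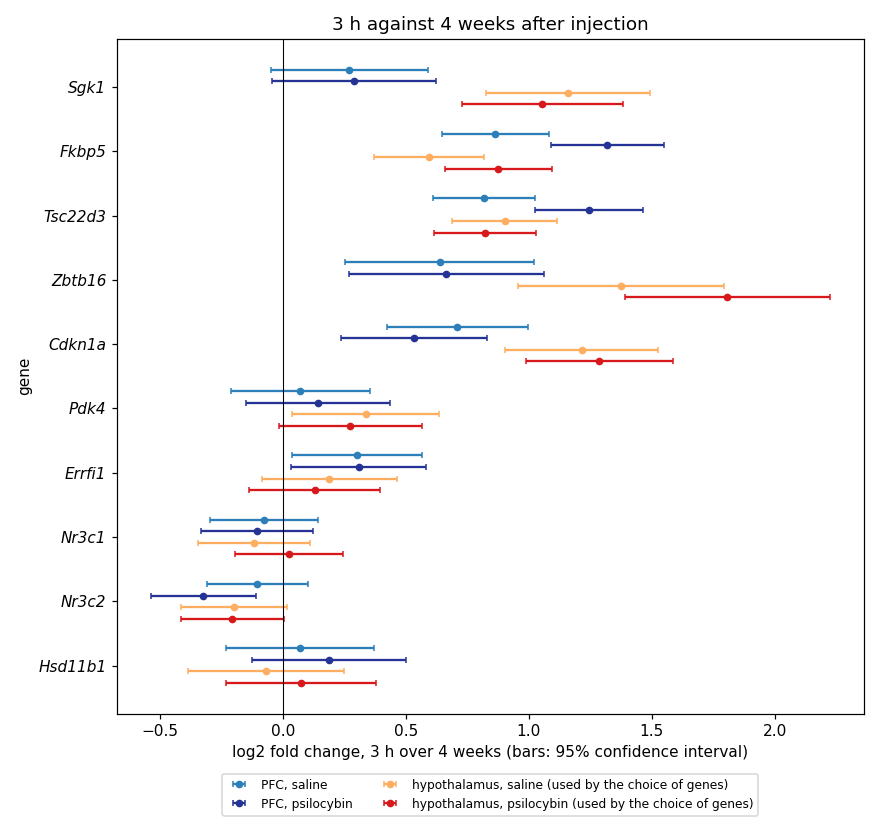
Log2 fold change of 3 h over 4 weeks (x axis) for the 10 genes (y axis) from the edgeR fit, after saline and after psilocybin in each region; points are estimates and bars are 95% confidence intervals. The hypothalamic values describe the choice of the genes, while in the PFC Fkbp5 and Tsc22d3 reach 1.32 and 1.25 after psilocybin and Sgk1 stays at 0.27 and 0.29.

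Other genes changed with the time of harvest in the PFC as well. Of 8 immediate early genes, which neurons switch on with activity, 7 were called higher at 3 h after saline and 7 after psilocybin, with median log2 fold changes of 1.08 and 1.22. Their summed level was 91.8 to 304 RPKM at 3 h after saline (median 189) against 44.6 to 197 at 4 weeks (median 60.0), and 88.7 to 255 (median 194) against 49.2 to 90.7 (median 52.7) after psilocybin. A single one of 5 microglial markers was called higher after each treatment and 1 of 5 astrocyte markers after psilocybin, and none of the 6 endothelial, 5 neuronal or 6 oligodendrocyte markers. A single one of 8 hypothalamic markers was called lower after saline, and 1 of 3 tested genes of wound healing and immune response higher after psilocybin. By direction alone, hypothalamic markers were above 0 in 0 of 8 after saline (median -0.90) and 1 of 8 after psilocybin (median -0.69), striatal markers in 0 of 5 (-0.76) and 5 of 5 (0.48), choroid plexus markers in 1 of 5 each (-0.60 and -0.57) and astrocyte markers in 5 of 5 each (0.18 and 0.32). The hypothalamic markers lay near 0 in the PFC, so their directions there rest on few reads. Their summed level had group medians of 2.81 RPKM at 3 h and 3.88 at 4 weeks after saline. After psilocybin these were 1.78 and 3.22. What part the immediate early genes and markers had in the differences of the 10 genes was not tested.

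A further 32 genes that glucocorticoids are known to induce were read from a list compiled with earlier results of these data known. In the PFC 13 of 32 were called higher at 3 h than at 4 weeks after saline and 22 of 32 after psilocybin, where 2.39% and 2.70% of all genes were called higher, with none called lower. The median log2 fold change of the list was 0.47 after saline and 0.64 after psilocybin, against -0.00 and 0.01 over all genes. Mfsd2a, a lipid transporter of the blood-brain barrier, had the smallest p-value of the list in both. It had 29.6 ± 8.92 CPM (SD, n = 8) at 3 h and 15.8 ± 1.58 (n = 8) at 4 weeks after saline (log2 fold change 0.91, SE 0.12, edgeR adjusted p = 1.53e-07). After psilocybin it had 39.3 ± 6.09 CPM (n = 8) and 15.1 ± 2.03 (n = 7), a log2 fold change of 1.39 (SE 0.12, edgeR adjusted p = 1.21e-12). The clock gene Per1 followed after saline with 95.6 ± 20.7 CPM at 3 h and 56.2 ± 17.1 at 4 weeks (log2 fold change 0.76, SE 0.12, edgeR adjusted p = 1.59e-05). Plin4, a lipid droplet protein, followed after psilocybin with 9.65 ± 1.96 and 1.79 ± 0.701 CPM (log2 fold change 2.48, SE 0.35, edgeR adjusted p = 3.09e-06). Fam107a, an actin-binding protein, followed in both, with log2 fold changes of 0.60 (SE 0.11, edgeR adjusted p = 0.000215) and 0.73 (SE 0.11, edgeR adjusted p = 1.31e-05). In the hypothalamus, where the comparison chose the set and carries no test, 30 of the 32 genes had a log2 fold change above 0 after saline and 27 after psilocybin, with medians of 0.33 and 0.29 against 0.00 and -0.03 over all genes. Mfsd2a had log2 fold changes of 0.96 (SE 0.12) after saline and 1.07 (SE 0.12) after psilocybin, and Plin4 2.28 (SE 0.33) and 2.84 (SE 0.33). Hif3a had 1.77 (SE 0.24) after saline and Mertk, a receptor of phagocytic cells, 1.00 (SE 0.13) after psilocybin. These hypothalamic genes are named for the smallest p-values of the list, Hif3a after saline only and Mertk after psilocybin only. Their values reflect that choice.

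**Figure D3:**
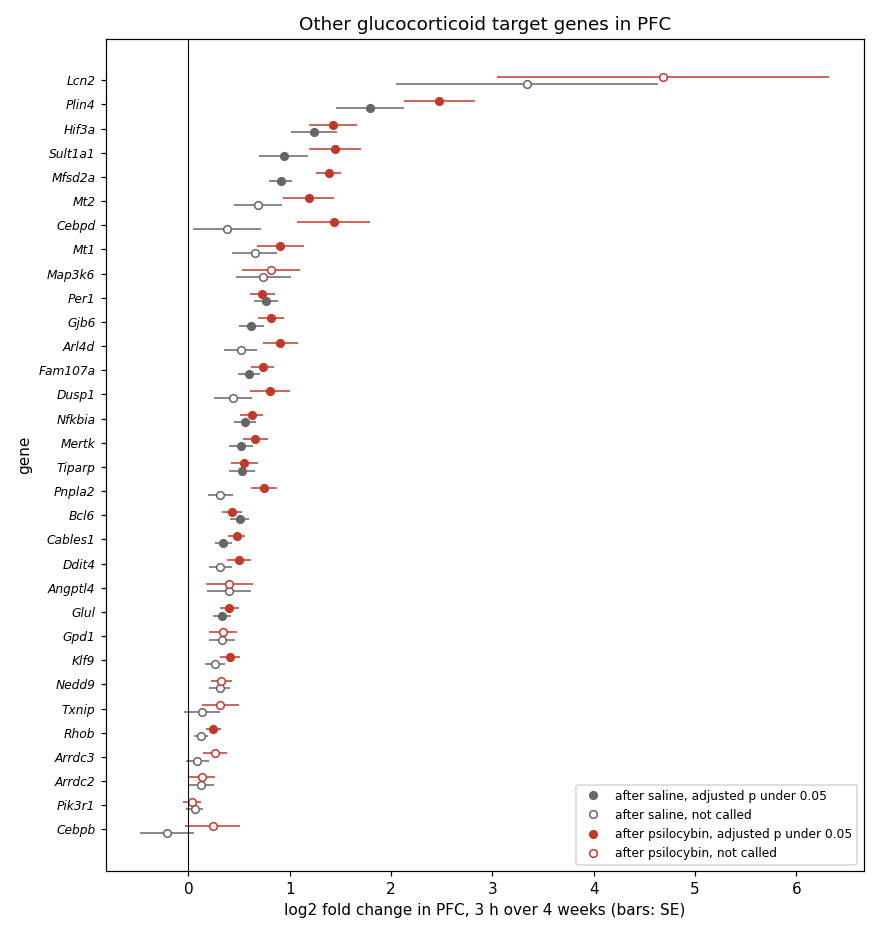
Log2 fold change of 3 h over 4 weeks in the PFC (x axis, bars are standard errors) for 32 other glucocorticoid target genes (y axis), after saline (grey) and after psilocybin (red); filled points passed an adjusted p of 0.05. Nearly every point lies right of 0, with 13 filled after saline and 22 after psilocybin, and Lcn2 has a wide error and was not called.

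Genes around the receptor were read from 3 further lists. Among 14 chaperones and cochaperones that fold the receptor, 1 was called in the PFC after each treatment, the heat shock gene Dnajb1 in both cases, where 4.72% and 5.96% of all genes were called. Dnajb1 had 85.9 ± 18.2 CPM at 3 h and 57.5 ± 7.43 at 4 weeks after saline (log2 fold change 0.57, SE 0.11, edgeR adjusted p = 0.000331), and its log2 fold change after psilocybin was 0.43 (SE 0.11, edgeR adjusted p = 0.0113). Of 12 receptor coregulators, none was called after saline and only Nr2f2 after psilocybin, at 0.51 (SE 0.15, edgeR adjusted p = 0.0303). In the hypothalamus Dnajb1 had 0.64 (SE 0.11) and 0.50 (SE 0.11), and Hspa1b, another heat shock gene, 1.44 (SE 0.31) after saline. Both are named for small p-values in that comparison, a choice that their values reflect. None of the 7 tested genes of corticosteroid transport and metabolism was called in the PFC, out of 12 listed. The median log2 fold changes of these 3 lists in the PFC lay between -0.08 and 0.12.

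Psilocybin was then compared with saline at the same time in the same region. None of the 10 genes was called in any of the 4 comparisons by edgeR, nor by DESeq2. The share of all genes called was 0.0105% in the PFC at 3 h and 0% in the other 3. At an unadjusted p under 0.05 there were 2 of the 10 in the PFC at 3 h (7.23% of all genes), 2 in the hypothalamus at 3 h (1.78%), and 0 at 4 weeks in the PFC (2.40%) and the hypothalamus (9.61%). The last share rested on hypothalamic psilocybin replicate 5, without which 361 of 18890 genes had such a p, against 1823 of 18971 with it. Without it 6 genes were called in the PFC at 3 h, against 2 with it. The 7.23% in the PFC at 3 h, 1371 genes, moved as well, to 3775 of 18885 genes without the 2 libraries of low weight and to 4071 of 18971 in limma with quality weights. Of the 32 other target genes none was called in any of the 4 comparisons, and 25 had a log2 fold change above 0 in the PFC at 3 h (median 0.10), 16 in the hypothalamus at 3 h (median -0.00), 10 in the PFC at 4 weeks (median -0.03) and 21 in the hypothalamus at 4 weeks (median 0.05). Marker genes moved at 3 h too, with none called. Striatal markers were above 0 in 5 of 5 in the PFC (median 0.39; summed level 47.2 to 139 RPKM after psilocybin and 41.1 to 125 after saline) and in 0 of 5 in the hypothalamus (median -0.65; 18.9 to 45.8 and 19.4 to 88.1 RPKM). Oligodendrocyte markers were above 0 in 6 of 6 in the PFC (median 0.21; 525 to 931 and 462 to 1052 RPKM) and in 2 of 6 in the hypothalamus (median -0.01). Thalamic markers were above 0 in 5 of 5 in both regions (medians 0.17 in the PFC and 0.16 in the hypothalamus), blood markers in 3 of 5 (0.24) and 5 of 5 (0.36), choroid plexus markers in 1 of 5 (-0.06) and 3 of 5 (0.49), and hypothalamic markers in 3 of 8 (-0.47) and 1 of 8 (-0.21). In the PFC the hypothalamic markers lay near 0, with summed medians of 1.78 RPKM after psilocybin and 2.81 after saline. The part of all these markers in the values below was not tested.

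The 2 in the PFC at 3 h were Fkbp5 and Tsc22d3. Fkbp5 had 71.8 ± 17.3 CPM after psilocybin and 51.9 ± 15.1 after saline (SD, n = 8 each), and 3 of 8 psilocybin libraries lay above the whole saline group. Its log2 fold change was 0.45 (SE 0.11, unadjusted p = 9.44e-05, 10th smallest of all genes, edgeR adjusted p = 0.172). Tsc22d3 had 127 ± 12.4 and 101 ± 28.1 CPM, and no psilocybin library exceeded the highest saline library at 152 CPM. Its log2 fold change was 0.32 (SE 0.10, unadjusted p = 0.00276, edgeR adjusted p = 0.456). Under voom with quality weights in limma, after the study's methods but on the 62 libraries kept here, both were called, Fkbp5 at 0.44 (adjusted p = 0.0091) and Tsc22d3 at 0.45 (adjusted p = 0.00862), when that fit called 6.49% of all genes (5.14% higher). Without its quality weights it called neither (adjusted p = 0.106 and 0.356). The weights also discounted saline replicates 3, 4 and 5 of this comparison (0.275, 0.323 and 0.286). Of these, replicate 4 had the highest Tsc22d3 of the saline group. With the 2 libraries of low weight left out, edgeR gave 0.38 for Fkbp5 (adjusted p = 0.0673) and 0.33 for Tsc22d3 (adjusted p = 0.0777). Over all settings and left-out libraries the adjusted p lay between 0.0091 and 0.981 for Fkbp5 and between 0.00862 and 0.981 for Tsc22d3. At 4 weeks in the PFC the log2 fold changes were -0.01 (95% interval -0.23 to 0.22) for Fkbp5 and -0.11 (95% interval -0.32 to 0.11) for Tsc22d3. The difference between the effects at 3 h and at 4 weeks was 0.46 for Fkbp5 (SE 0.16) and 0.43 for Tsc22d3 (SE 0.15), neither of which passed the correction (edgeR adjusted p = 1 for both).

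In the hypothalamus at 3 h, Fkbp5 had 55.5 ± 5.05 CPM after psilocybin (n = 8) and 44.0 ± 7.14 after saline (n = 7), a log2 fold change of 0.34 (SE 0.11, unadjusted p = 0.00357, edgeR adjusted p = 1). For Cdkn1a the levels were 21.6 ± 3.36 and 17.4 ± 6.39 CPM (log2 fold change 0.33, SE 0.15, unadjusted p = 0.0309, edgeR adjusted p = 1). Sgk1 had 54.9 ± 20.9 and 68.6 ± 25.2 CPM, with a log2 fold change of -0.32 (95% interval -0.65 to 0.01). The psilocybin effect on Fkbp5 in the PFC less that in the hypothalamus was 0.11 (95% interval -0.20 to 0.42), and none of the 10 genes passed a test of that difference, with an unadjusted p under 0.05 for Cdkn1a only (-0.48, 95% interval -0.89 to -0.07). Of all 18971 genes, 528 had such a p and 0 were called. For Sgk1 in the PFC at 3 h the log2 fold change was 0.03 (95% interval -0.29 to 0.35). For the receptors in the PFC at 3 h the log2 fold changes were 0.05 for Nr3c1 (95% interval -0.17 to 0.27) and -0.11 for Nr3c2 (95% interval -0.32 to 0.09). In the hypothalamus at 4 weeks Nr3c1 was at -0.15 with all libraries and at -0.04 without psilocybin replicate 5.

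**Figure D4:**
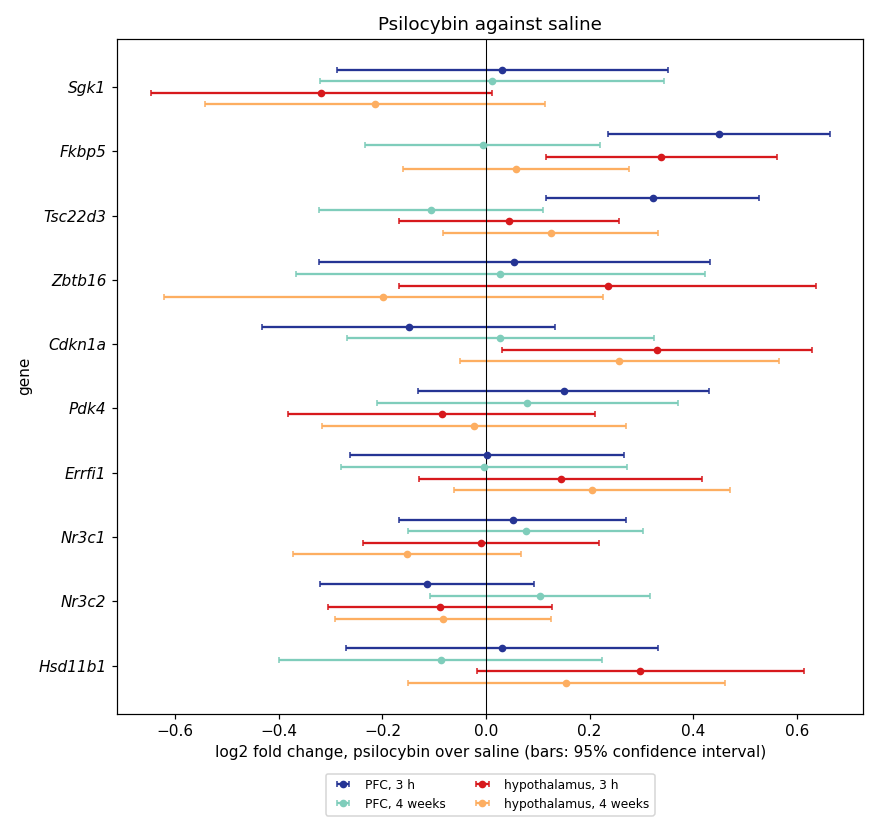
Log2 fold change of psilocybin over saline (x axis) for the 10 genes (y axis) from the edgeR fit, in each region at each time; points are estimates and bars are 95% confidence intervals. The intervals of Fkbp5 lie above 0 at 3 h in both regions, at 0.45 in the PFC and 0.34 in the hypothalamus, and no gene passed the adjusted threshold.

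The regions differed in the level of most of these genes, as they did for most genes. Leaving out Sgk1, whose hypothalamic values entered the choice, 6 of 9 genes were called between PFC and hypothalamus after saline at 3 h, 6 after saline at 4 weeks, 5 after psilocybin at 3 h and 6 after psilocybin at 4 weeks. Of all genes 54.9%, 55.2%, 56.2% and 58.0% were called, so these counts are near the background. Zbtb16 differed most, with 33.7 ± 9.49 CPM in the PFC and 8.51 ± 1.34 in the hypothalamus at 4 weeks after saline (SD, n = 8 each), a log2 fold change of 1.96 (SE 0.20, edgeR adjusted p = 1.88e-12). The other log2 fold changes of Zbtb16 were 2.19 after psilocybin at 4 weeks, and 1.22 and 1.04 at 3 h after saline and psilocybin. Cdkn1a was higher in the PFC by 1.44 and 1.21 at 4 weeks and by 0.94 and 0.46 at 3 h, after saline and psilocybin. Pdk4 was higher in the PFC by 0.59 to 0.96 and Nr3c2 by 0.48 to 0.67, called in all 4 comparisons. Fkbp5 was called after psilocybin at 3 h (0.35, edgeR adjusted p = 0.00386), a call lost with no filter on low counts (adjusted p = 0.0544). Errfi1 was called in none of the 4. After psilocybin at 4 weeks it had -0.28 (edgeR adjusted p = 0.0736), which passed 0.05 in 4 of 12 alternative settings (DESeq2 adjusted p = 0.0316), and it had -0.02 (edgeR adjusted p = 0.891) without hypothalamic replicate 3. Tsc22d3 was called lower in the PFC in 3 of 4, between -0.61 and -0.37, and had -0.18 after psilocybin at 3 h (edgeR adjusted p = 0.13). Hsd11b1 was called higher after saline (0.59 at 3 h and 0.45 at 4 weeks) and had 0.32 and 0.21 after psilocybin. Without hypothalamic replicate 5 the value after psilocybin at 3 h was 0.50 (edgeR adjusted p = 0.00207), without PFC replicate 5 or 8 it was 0.37 or 0.36 (edgeR adjusted p = 0.0386 and 0.0458), and without hypothalamic replicate 3 that at 4 weeks was 0.38 (edgeR adjusted p = 0.0246). Because each mouse gave both regions, the fit with the mouse as a block was read beside these. With this pairing Tsc22d3 was called lower after psilocybin at 3 h (-0.17, adjusted p = 0.0244), Hsd11b1 was called after psilocybin at 3 h (0.36, adjusted p = 0.0324) and 4 weeks (0.40, adjusted p = 0.0275), and Fkbp5 after saline at 3 h (0.24, adjusted p = 0.0184), where the fit without it gave 0.24 with an adjusted p of 0.0602. Without the pairing, edgeR called Fkbp5 there in 5 of 15 fits with 1 library left out (adjusted p between 0.00732 and 0.204). It was also called without the libraries of low weight (0.24, edgeR adjusted p = 0.0421). Nr3c1 was called only after psilocybin at 4 weeks (0.27, edgeR adjusted p = 0.0357), a call kept in 5 of 12 alternative settings (adjusted p between 0.0133 and 0.231), and it was lost without psilocybin replicate 5 of the hypothalamus (0.16, adjusted p = 0.121) or without PFC replicate 4, 5 or 8 (adjusted p up to 0.0991). At 3 h after psilocybin it had 0.14 with all libraries and was called at 0.22 (adjusted p = 0.00803) without those of low weight. Sgk1, given as a description, had medians of 49.9 and 49.1 CPM in the PFC at 4 weeks after saline and psilocybin, and 29.0 and 28.6 CPM in the hypothalamus. At 3 h its medians in the PFC and hypothalamus were 60.2 and 58.1 CPM after saline and 57.9 and 51.7 after psilocybin. Region and extraction pool cannot be told apart, since each pool held 1 region.

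Since each mouse gave both tissues, the deviation of a library from its group mean, with the extraction pool removed, was set against that of the other tissue from the same animal. Over 30 mice the correlation between regions was 0.66 for Tsc22d3 (Spearman's rho 0.66), 0.64 for Sgk1 (rho 0.51), 0.63 for Fkbp5 (rho 0.63), 0.50 for Errfi1 (rho 0.25), 0.47 for Zbtb16 (rho 0.44) and 0.46 for Cdkn1a (rho 0.53). The median over all 18971 genes was 0.02 and the 95th percentile 0.36. The value of Cdkn1a fell below that percentile without the 2 mice farthest from the median (0.34) and without removal of the pool (0.28). The other 4 genes had correlations between -0.19 and 0.04. These are descriptions. Both libraries of a mouse share the animal and its harvest, and the genes within a library share its depth.

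The correlation was higher at 3 h than at 4 weeks in these libraries for 5 of the 6 genes by both measures, though the difference was not tested; Errfi1 had a higher Spearman's rho at 4 weeks (0.37) than at 3 h (0.24). Over the 15 mice harvested at 3 h it was 0.83 for Sgk1 (rho 0.80), 0.73 for Tsc22d3 (rho 0.83) and 0.72 for Fkbp5 (rho 0.78). Over the 15 mice at 4 weeks it was -0.07, 0.47 and 0.37. The 95th percentile of all genes was 0.49 at 3 h and 0.50 at 4 weeks. Without the 2 mice farthest from the median in the hypothalamus, the values at 3 h were 0.79, 0.65 and 0.66 over 13 mice. Within treatments at 3 h, Sgk1 had 0.86 over 8 psilocybin mice and 0.79 over 7 saline mice, Tsc22d3 had 0.79 and 0.76, and Fkbp5 0.58 and 0.76. Zbtb16 and Cdkn1a had 0.73 and 0.70 at 3 h, but 0.22 and 0.20 within the psilocybin mice and 0.86 each within the saline mice. Without the 2 farthest mice both had 0.47, below the 95th percentile of all genes. Errfi1 had 0.67 at 3 h and -0.03 without the 2 farthest mice, so its value rested on those animals, and 0.57 without the 2 farthest at 4 weeks. Sgk1 also varied more at 3 h than at 4 weeks, with a SD of residuals on the log2 scale of 0.51 against 0.30 in the hypothalamus and 0.22 against 0.09 in the PFC.

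**Figure D5:**
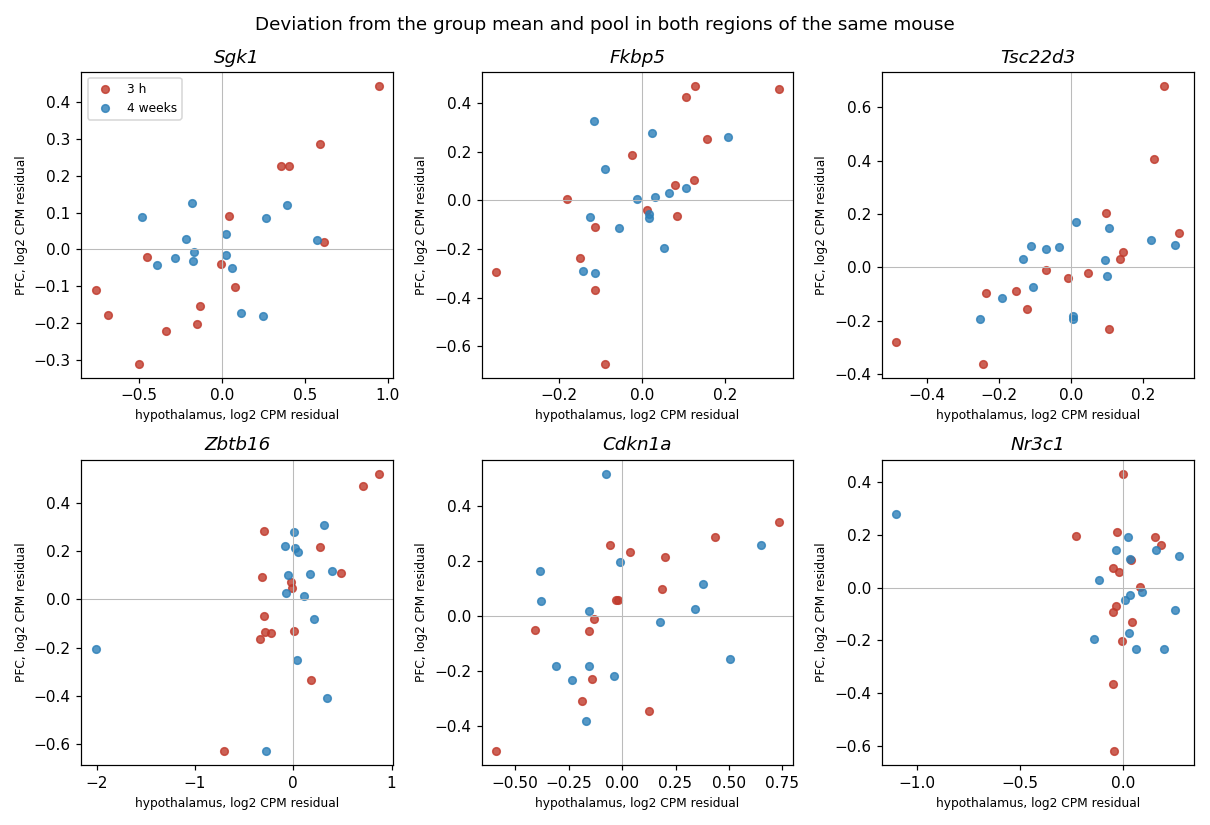
Deviation of log2 CPM from the group mean and extraction pool in the hypothalamus (x axis) and the PFC (y axis) of the same mouse, 1 point per mouse (30 mice), for Sgk1, Fkbp5, Tsc22d3, Zbtb16, Cdkn1a and Nr3c1, in red at 3 h and in blue at 4 weeks. The red points of Sgk1 run along the diagonal (r = 0.83 over 15 mice) and the blue points do not (r = -0.07), while Nr3c1 shows no such line.

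Within a region, the same residuals showed which of the genes varied together from library to library. In the hypothalamus Fkbp5 had a correlation of 0.62 with Tsc22d3 and 0.56 with Sgk1 over 31 libraries, and in the PFC it had 0.58 with Tsc22d3 and 0.21 with Sgk1 (0.36 without the library of low weight). Sgk1 had 0.60 with Errfi1 and 0.57 with Pdk4 in the PFC, and -0.36 with Zbtb16. The 5th and 95th percentiles of the correlation of Sgk1 with all genes were -0.49 and 0.47 in the PFC and -0.39 and 0.37 in the hypothalamus. Errfi1 and Hsd11b1 had 0.77 in the hypothalamus, where psilocybin replicate 5 at 3 h was the highest of its group in both (56.7 and 31.9 CPM), and in summed choroid plexus markers (120 RPKM, others 6.69 to 32.0). Psilocybin replicate 3 at 4 weeks was likewise the highest of its group in both (64.7 and 24.8 CPM) and in choroid plexus markers (186 RPKM). The correlation without these libraries was not computed. The part of these markers was not tested. The receptors had 0.73 with each other in the PFC (0.62 without the library of low weight) and 0.81 in the hypothalamus, where the value was 0.43 without psilocybin replicate 5 at 4 weeks. The 95th percentile of all genes with Nr3c1 was higher, at 0.79 in the PFC and 0.89 in the hypothalamus. With Nr3c2 it was 0.67 and 0.78. Fkbp5 and Nr3c1 had -0.72 in the PFC, or -0.70 without the library of low weight, where the 5th percentile of all genes with Nr3c1 was -0.67.

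The genes whose level over the 31 hypothalamic libraries was most like that of Sgk1 were Adipor2 (r = 0.85), Mxd4 (r = 0.84), Mat2a (r = 0.83), Bcl6 (r = 0.81) and Yy1 (r = 0.81). With group and pool removed they were Mxd4 (r = 0.75), Dio2 (r = 0.71), Mat2a (r = 0.69), Klf9 (r = 0.66) and Il1r1 (r = 0.66). In the PFC they were Tcim (r = 0.85), Sesn1 (r = 0.84), Ccdc117 (r = 0.82), Snap29 (r = 0.82) and Zfp189 (r = 0.81), and with group and pool removed Zfp189 (r = 0.79), Serpinb9 (r = 0.77), Ccdc117 (r = 0.75), Tcim (r = 0.74) and Clec2d (r = 0.74). No gene was in the list of both regions. Bcl6, found by level, and Klf9, found with group and pool removed, were also in the list of 32 other target genes. The hypothalamic level of Sgk1 holds the difference between times used for the choice. The list was compiled with earlier results known, so this overlap is a description only.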

How the data were processed

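RNA of both regions was sequenced by the authors as stranded poly-A libraries (TruSeq Stranded). They aligned the reads to GRCm38 with STAR 2.7.2b, counted them on GENCODE vM25 genes with featureCounts 1.6.2 and deposited whole-number counts per gene with no normalization, filter or pooling. They kept read pairs whose ends lay on 1 strand, and whether that strand was matched to the gene's is not given in the sources used here, so reads of genes that overlap Fkbp5, Tsc22d3, Cdkn1a, Errfi1, Nr3c2 or Hsd11b1 may not be separable from theirs. Gene symbols were matched for 55141 of 55401 IDs. Groups were taken from the sample labels.

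Libraries with at least 1000000 counts were kept. Counts were scaled by TMM, filtered with filterByExpr by group (minimum count 10) and modelled jointly over all groups, with the extraction pools of each region as covariates, by the robust quasi-likelihood test of edgeR 4.0.16 (R 4.3.3), called at a Benjamini-Hochberg adjusted p under 0.05 over all genes tested. SE denotes the standard error of a log2 fold change. CPM compares libraries within a gene, and RPKM compares genes. Alternatives were DESeq2 1.42.0, the model of the study's methods in limma 3.58.1 (on the libraries kept here) with and without quality weights, other size factors, filters and libraries, no pool, and a block. Residuals for correlations are log2 CPM with a prior count of 2, less group mean and pool. No 2 of 210 library pairs within groups held identical counts.

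The replicate number is the cage number in the labels. Within a region, same-numbered libraries had a mean correlation of residuals of 0.0723 (hypothalamus) and 0.0806 (PFC) with group removed, and -0.0236 and -0.0415 with pool removed too. The hypothalamus and PFC libraries with the same treatment, time and number come from 1 mouse, which is where the pairing across regions comes from. The p-values of the main fit rest on the spread between libraries, estimated over all 8 groups of both regions. That fit does not use the pairing of regions within a mouse.

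The members and lists were chosen with earlier results of these data known. Named genes are all 10 members, up to 3 called genes of smallest p per list and comparison, and the 5 genes most like Sgk1 per region.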

Additional observations from a re-analysis of the deposited data

Results flagged for a closer look

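The values below each lay far from the rest of their group by Dixon's criterion. Of 80 groups of values (10 genes in 8 groups) 8 were marked, where chance marks about 1 in 20. In the hypothalamus at 4 weeks after saline, replicate 3 had the highest Sgk1 at 45.9 CPM, against 25.7 to 32.5 in the others, and also the highest Fkbp5 at 32.9 CPM, against 26.8 to 29.5. In the hypothalamus at 3 h after psilocybin, replicate 5 had the highest Errfi1 at 56.7 CPM (others 27.6 to 31.6) and the highest Hsd11b1 at 31.9 CPM (others 11.04 to 18.77). At 4 weeks after psilocybin, hypothalamic replicate 3 had Errfi1 at 64.7 CPM (others 22.8 to 28.0). Nr3c1 stood apart in 3 groups, at 122 CPM in saline replicate 6 of the hypothalamus at 3 h (others 106 to 110), at 48.3 CPM in psilocybin replicate 5 of the hypothalamus at 4 weeks (others 107 to 125) and at 74.8 CPM in psilocybin replicate 7 of the PFC at 3 h (others 114 to 143). The last 2 are the libraries with the lowest quality weights. The first 3 libraries named were also the highest of their groups in summed choroid plexus markers, at 964 RPKM in saline replicate 3 at 4 weeks (others 8.90 to 54.3), 120 RPKM in psilocybin replicate 5 at 3 h (others 6.69 to 32.0) and 186 RPKM in psilocybin replicate 3 at 4 weeks (others 9.63 to 59.0). The part of these markers in the values was not tested.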

How the results depend on the processing

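Each count of called genes was recomputed under 12 alternative settings and with each library of the comparison left out. A change of sign between 2 values that were both not called was not counted as a reversal, and no call was reversed. In the PFC at 3 h, psilocybin against saline gave 0 genes, 2 in limma after the study's methods and 0 in the 11 other settings. For 3 h against 4 weeks in the PFC after psilocybin, the count was 4, with 3 to 6 under the settings and 2 to 5 with single libraries left out. After saline it was 4, with 3 to 5 and 3 to 4. Between regions the counts lay between 5 and 7 in every setting. The settings chosen after seeing the data were limma after the study's methods without quality weights and the fit without the 2 libraries of low weight. The replicate block within regions (cage in place of pool) changed no call of the 10 genes: with it Fkbp5 in the PFC at 3 h had 0.48 (adjusted p = 0.108) for psilocybin against saline. The mouse as a block changed the 4 calls between regions named in the report and no other. The same-mouse correlation of Cdkn1a was 0.28 without removal of the pool, that of Hsd11b1 was 0.09, and that of Nr3c1 was 0.09 without the mouse of hypothalamic psilocybin replicate 5 at 4 weeks.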
